A study of Mus musculus with 16 samples.

Results

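The genes described here were the 2 corticosteroid receptors, Nr3c1 and Nr3c2, and 8 genes that act on receptor signaling or are known to answer to it: Fkbp5, Fkbp4, Hsd11b1, Sgk1, Tsc22d3, Ddit4, Cdkn1a and Errfi1. They were chosen by name, and every transcript carrying a listed gene name was taken, which gave 45 of 80137 transcripts. These belonged to 9 of the 10 genes, among 18287 gene names in all. No row used here carried the name Tsc22d3, so this gene was not analysed here. RNA-seq was performed on the hippocampus of C57BL/6 wild type mice aged 3 months, male according to the methods. The 2 hippocampi of each mouse were combined into 1 library, which gave 16 libraries. The 4 homecage (HC) mice stayed in their cages and met neither shocks nor escape trials. The 4 control (Ctrl) mice met the test session in the shuttle box, with 30 trials of escapable shock at 0.4 mA, and according to the methods had been put in the box without shock on the day before. The non-learned helpless (NLH, 4 mice) and learned helpless (LH, 4 mice) groups had first received 180 inescapable foot shocks of 0.4 mA and met the same trials on the next day. NLH and LH mice were told apart by clustering and discriminant analysis of their escape failures and latencies, so these groups were defined by behavior and not by treatment. In the 3 tested groups, tissue was taken 3 h after the test.

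Corticosterone, the main glucocorticoid of the mouse, enters the hippocampus and binds the mineralocorticoid receptor (Nr3c2) with high affinity and the glucocorticoid receptor (Nr3c1) with lower affinity, so that the latter is engaged mainly when hormone is high, as under stress. The unbound receptors sit in a complex of heat shock proteins and cochaperones. Fkbp4 favors hormone binding and transport to the nucleus, whereas Fkbp5 lowers receptor sensitivity and is itself induced by the receptor. Hsd11b1 regenerates active hormone inside cells. Sgk1, Ddit4, Cdkn1a and Errfi1 are genes whose transcription glucocorticoids are known to raise in many tissues.

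By named transcripts, Sgk1 had the highest mean level of the 9 genes. Its transcripts begin at several places on the plus strand of chromosome 10. The bases before 3 of these starts are shown because the transcripts that begin there are given below. The windows come from the RefSeq promoter table (build GRCm38.p6), run 5′ to 3′ and end 1 base before the start. Capitals mark the hexamer AGAACA or TGTTCT, which are reverse complements, so both strands were searched, and the spaced palindrome ACANNNTGT, which can overlap the hexamers.
Sgk1-204, chr10:21881934-21882183: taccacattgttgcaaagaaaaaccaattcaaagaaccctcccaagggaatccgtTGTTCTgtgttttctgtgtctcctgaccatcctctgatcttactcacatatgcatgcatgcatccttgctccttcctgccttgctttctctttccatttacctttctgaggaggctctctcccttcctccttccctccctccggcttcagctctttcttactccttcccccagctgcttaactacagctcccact
Sgk1-202, chr10:21993640-21993889: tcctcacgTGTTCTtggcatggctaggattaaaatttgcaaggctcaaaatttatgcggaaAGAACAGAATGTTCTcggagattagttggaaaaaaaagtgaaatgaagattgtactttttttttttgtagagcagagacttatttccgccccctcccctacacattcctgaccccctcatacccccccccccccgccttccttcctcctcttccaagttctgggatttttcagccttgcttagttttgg
Sgk1-201, chr10:21994416-21994665: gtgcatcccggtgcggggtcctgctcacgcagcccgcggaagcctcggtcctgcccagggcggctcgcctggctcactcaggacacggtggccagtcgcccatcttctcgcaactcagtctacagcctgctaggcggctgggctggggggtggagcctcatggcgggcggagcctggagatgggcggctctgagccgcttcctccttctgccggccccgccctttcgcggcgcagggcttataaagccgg
The window before Sgk1-202 held the full element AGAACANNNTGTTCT, as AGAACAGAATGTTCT at chr10:21993701-21993715, which lies 965 bases before the start of Sgk1-201. Only 3 of 32851 promoter windows of 300 bases in the table (250 before and 50 after a start) held that full element, or 0.00913%. A hexamer was found in 4 of 18 windows of the listed genes, 22.2%, beside 19% of all windows, and the spaced palindrome in 2 of 18, beside 6.85% of all. A match is a string of letters in a window and was not measured as a bound site. The table held windows for 9 of the 10 genes.

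The levels are FPKM, fragment numbers divided by transcript length and by library size. They were summed here over the named transcripts of a gene, so genes can be set beside each other per length. Summed FPKM of all transcripts ranged from 120208 to 158004 per mouse. A depth of 20160000 to 38070000 fragments was estimated from the steps between low values. LH replicates 3 and 4 stood apart: 10846 and 15504 transcripts were listed at 0 in them, against 4872 to 7352 in the other 14 mice, and the median SD between mice was 0.36 on the log2 scale in LH against 0.14 to 0.20 in the other groups. Markers of hippocampal neurons were present, with 9 of 10 measured and a summed level of 264 to 401 FPKM. The summed markers of oligodendrocytes (7 of 8 measured) ran from 281 to 549 FPKM in LH, from 412 to 456 in HC, from 350 to 460 in Ctrl and from 418 to 531 in NLH. Those of choroid plexus (6 of 6 measured) ran from 2.57 to 94.6 FPKM in LH, from 3.20 to 40.2 in HC, from 17.9 to 53.3 in Ctrl and from 4.23 to 66.1 in NLH. The part of these markers in the results below was not tested.

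With assembled transcripts without a gene name added, the mean was 30.4 FPKM at the Nr3c2 locus and 20.3 at the Sgk1 locus. By mean level of the named transcripts over the 16 mice the order was Sgk1 (19.6 FPKM), Fkbp4 (13), Nr3c1 (10.2), Nr3c2 (8.79), Errfi1 (6.74), Hsd11b1 (4.89), Fkbp5 (3.80), Ddit4 (3.69) and Cdkn1a (0.874). Neighbors in this order overlapped in their ranges over mice, except Cdkn1a, which stayed below Ddit4 in every mouse (0.216 to 2.00 against 2.30 to 5.81 FPKM). The estimated number of fragments behind a value was lowest for Cdkn1a, from 9 to 131 with a median of 43, and highest for Nr3c1, with a median of 1747. None of the 9 genes passed an adjusted p of 0.05 in any of the 6 comparisons, by limma on log2(FPKM + 0.1) with adjustment over all 18287 gene names or by the equal-variance test on FPKM. Over all gene names limma passed 0.0% in Ctrl vs. HC, 0.00547% in NLH vs. Ctrl, 0.0% in LH vs. Ctrl, 0.0109% in LH vs. NLH, 0.0219% in NLH vs. HC and 0.17% in LH vs. HC.

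**Figure D1:**
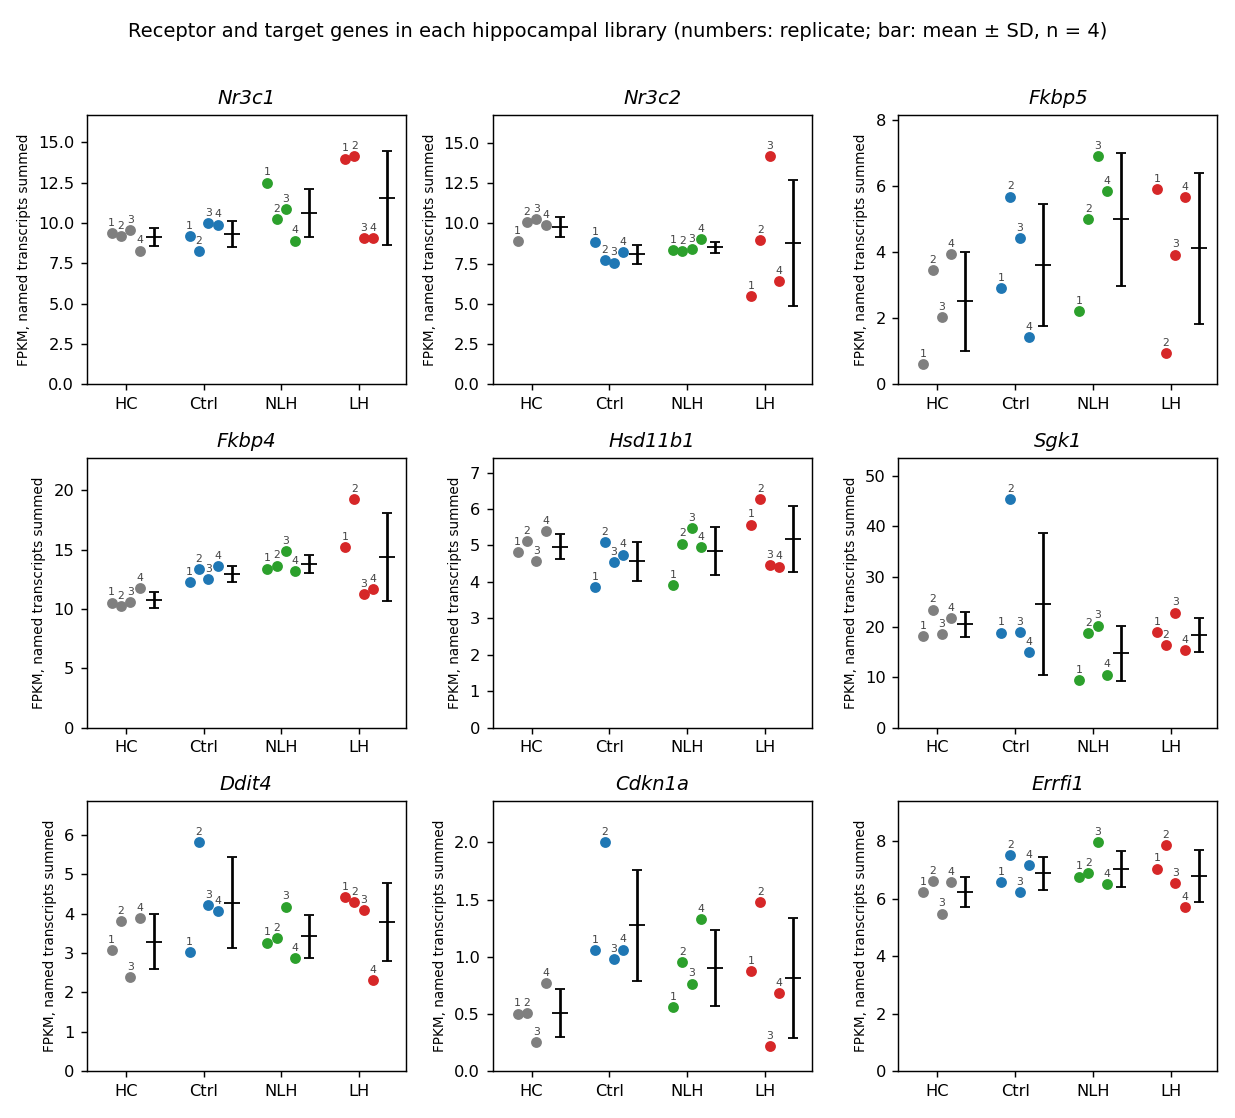
FPKM of the 9 measured genes in each mouse (points, numbered by replicate) with mean ± SD of the 4 mice of each group. Ctrl replicate 2 lies far above the other mice for Sgk1 at 45.5 FPKM, and Fkbp4 is lower in the HC mice than in every Ctrl and NLH mouse.

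In limma few of the 9 genes had an unadjusted p under 0.05, and neither receptor did. In Ctrl vs. HC, the comparison for handling, the shuttle box and the test session together, 1 of 9 genes (Cdkn1a, higher) had an unadjusted p under 0.05 in limma, beside 2.7% of all gene names. In the same comparison 3 of 9 did not overlap between groups, with Cdkn1a and Fkbp4 higher and Nr3c2 lower, beside 5.24% of all gene names. In NLH vs. Ctrl, which asks about inescapable shock without helplessness, 1 of 9 (Sgk1, lower) had an unadjusted p under 0.05, beside 5.59%, and none separated, beside 6.04%. LH vs. Ctrl had 0 of 9 under 0.05, beside 11.5%, and none separated, beside 5.59%. LH vs. NLH, the comparison for helplessness after the same inescapable shocks, also had 0 of 9 under 0.05, beside 7.54%, and none separated, beside 2.11%. In NLH vs. HC and in LH vs. HC, 1 of 9 (Fkbp4, higher) had an unadjusted p under 0.05, beside 6.91% and 13.2%. Fkbp4 also separated in NLH vs. HC, beside 7.15%, whereas none separated in LH vs. HC, beside 6.2%. The median log2 difference of the 9 genes was 0.14 in Ctrl vs. HC, 0.17 in NLH vs. HC and 0.18 in LH vs. HC, while that over all gene names was 0.02, 0.08 and 0.00. These 3 comparisons share the HC mice, as those with Ctrl share the Ctrl mice.

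Nr3c1, the glucocorticoid receptor on chromosome 18, was measured at 9.38, 9.21, 9.57 and 8.29 FPKM in the HC mice and at 9.20, 8.25, 10.0 and 9.89 in the Ctrl mice. It was measured at 12.5, 10.3, 10.8 and 8.91 FPKM in NLH and at 14.0, 14.2, 9.04 and 9.05 in LH. LH replicates 1 and 2 were therefore the highest of all 16 mice, and LH replicates 3 and 4 lay inside the HC and Ctrl range. The mean was 9.34 ± 0.807 FPKM in Ctrl and 11.6 ± 2.91 in LH (SD, n = 4 each). The difference of 0.27 on the log2 scale, with a 95% confidence interval of -0.05 to 0.60, did not pass limma's test (adjusted p = 0.526). With LH replicates 3 and 4 left out it was 0.59 at an adjusted p of 0.0236 in limma, but all genes moved with it: their median difference was then 0.20, and 5.42% of gene names passed. After scaling by size factors in the same 14 mice no listed gene passed, and 0.0767% of all gene names did. The difference was 0.10 in LH vs. NLH, 0.18 in NLH vs. Ctrl and 0.03 in Ctrl vs. HC, with adjusted p of 0.903 or more in limma. In whole tissue, fewer cells of a type and less RNA per cell cannot be told apart.

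Of the Nr3c1 transcripts, Nr3c1-204 (ENSMUST00000115571.7, 8 exons) carried 69.7% of the named FPKM. It stood at 7.04, 7.58, 6.48 and 6.23 FPKM in HC and at 4.87, 4.16, 6.31 and 5.98 in Ctrl. In NLH it stood at 7.12, 8.72, 6.31 and 6.74 FPKM, and in LH at 10.7, 9.18, 6.74 and 9.05. The Ctrl mice were thus the lowest group, and no Ctrl mouse reached an NLH or LH mouse, although Ctrl replicate 3 came within the rounding of NLH replicate 3. LH vs. Ctrl gave a ratio of means of 1.67 and a log2 difference of 0.73 (95% confidence interval 0.39 to 1.07), with an unadjusted p of 0.00037 and an adjusted p of 0.131 in limma over all transcripts. The exact permutation test of these mice gave 0.0286, the smallest p that 4 mice against 4 allow. In NLH vs. Ctrl the log2 difference was 0.44 at an adjusted p of 0.821 in limma, and in Ctrl vs. HC it was -0.37 at an adjusted p of 1. The minor transcripts Nr3c1-201 (mean 1.33 FPKM) and Nr3c1-203 (mean 1.02 FPKM) were near 0 in LH replicate 4, and Nr3c1-203 also in LH replicate 3, HC replicate 2 and NLH replicate 2.

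Nr3c2, the mineralocorticoid receptor (chromosome 8, 76899442 to 77245012 in GRCm38, plus strand), stood at 8.90, 10.1, 10.2 and 9.91 FPKM in HC and at 8.86, 7.71, 7.56 and 8.22 in Ctrl. Every Ctrl mouse was below every HC mouse, although the nearest pair differed by little (8.86 and 8.90 FPKM). The log2 difference was -0.27 (95% confidence interval -0.70 to 0.16, adjusted p = 1 in limma), and the exact permutation test gave 0.0286. NLH mice ran from 8.28 to 9.04 FPKM. The LH mice were the most spread, at 5.50, 8.98, 14.2 and 6.43 FPKM, and held both the lowest and the highest value of the 16 mice. LH differed from Ctrl by 0.02 and from NLH by -0.05 on the log2 scale.

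The named transcripts were the smaller share of the Nr3c2 locus. A further 11 assembled transcripts without a gene name lay there and carried 71.1% of the locus FPKM, whose mean was 30.4. These were singled out after their values were seen. Over all of them the locus varied little between mice, with a coefficient of variation of 7.09%, against 21.7% for the named sum. The Ctrl vs. HC difference, -0.27 in the named sum, was -0.01 for the whole locus. Both main named transcripts encode the receptor. Nr3c2-203 (mean 5.06 FPKM) was at 8.97 in LH replicate 3 and 0.00733 in LH replicate 4, whereas Nr3c2-204 (mean 3.56 FPKM) was at 4.07 and 5.37 there. Nr3c2-203 was at 5.29 to 6.51 FPKM in NLH and 4.03 to 4.65 in Ctrl, without overlap, with a log2 difference of 0.43 at an adjusted p of 1 in limma and an exact permutation p of 0.0286. Nr3c2-204 went the other way, at 2.10, 2.99, 2.36 and 2.52 FPKM in NLH, below the means of 4.2 ± 0.905 in HC and 3.66 ± 0.787 in Ctrl (SD, n = 4 each). Its log2 difference was -0.71 in NLH vs. HC and -0.52 in NLH vs. Ctrl, at adjusted p of 0.689 and 0.961 in limma, and it overlapped between groups in both.

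Fkbp5, the cochaperone that dampens the receptor (chromosome 17, 28399094 to 28517527, minus strand), was the most uneven gene of the list beside Cdkn1a. It stood at 0.619, 3.44, 2.03 and 3.93 FPKM in HC and at 2.91, 5.67, 4.43 and 1.43 in Ctrl. In NLH it stood at 2.20, 5.00, 6.91 and 5.84 FPKM, and in LH at 5.91, 0.954, 3.92 and 5.66. All 4 groups overlapped, and single mice of HC and LH were under 1 FPKM. The log2 difference was 0.62 in Ctrl vs. HC, 1.12 in NLH vs. HC and 0.69 in LH vs. HC, each with an interval that included 0, and it was -0.43 for LH vs. NLH (95% confidence interval -1.72 to 0.85). Against HC the adjusted p was 1, 0.774 and 0.672 in limma. With single mice left out these 3 differences ran from 0.087 to 0.99, 0.59 to 1.47 and 0.16 to 1.26.

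Most of this spread was not seen in the summed locus, although whether its unnamed transcripts belong to Fkbp5, or those at Nr3c2 to that gene, was not tested. The leading transcript Fkbp5-201 (ENSMUST00000079413.9) held 91.4% of the named FPKM. An assembled transcript without a gene name, singled out after its values were seen, ran against it: where Fkbp5-201 was at 0.215 FPKM in HC replicate 1 and 0.850 in LH replicate 2, the unnamed one was at 4.43 and 3.94. Where Fkbp5-201 was at 6.85 and 5.76 FPKM in NLH replicates 3 and 4, the unnamed one was at 0.322 and 0.0103. Over the 16 mice Pearson's r of the pair was -0.878 and Spearman's rho -0.885, given as a description because transcripts of a locus share reads. The 5 unnamed transcripts held 46.1% of the locus FPKM. The coefficient of variation was 51.5% for the named sum and 13.3% with them added, and the locus ranged from 5.93 to 7.17 FPKM in HC, 7.08 to 9.31 in Ctrl, 5.58 to 8.33 in NLH and 6.06 to 7.26 in LH. The log2 difference then was 0.26 in Ctrl vs. HC, 0.11 in NLH vs. HC and 0.10 in LH vs. HC. It turned to -0.15 in NLH vs. Ctrl, where the named sum had given 0.51, and to -0.16 in LH vs. Ctrl, where it had given 0.07.

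**Figure D2:**
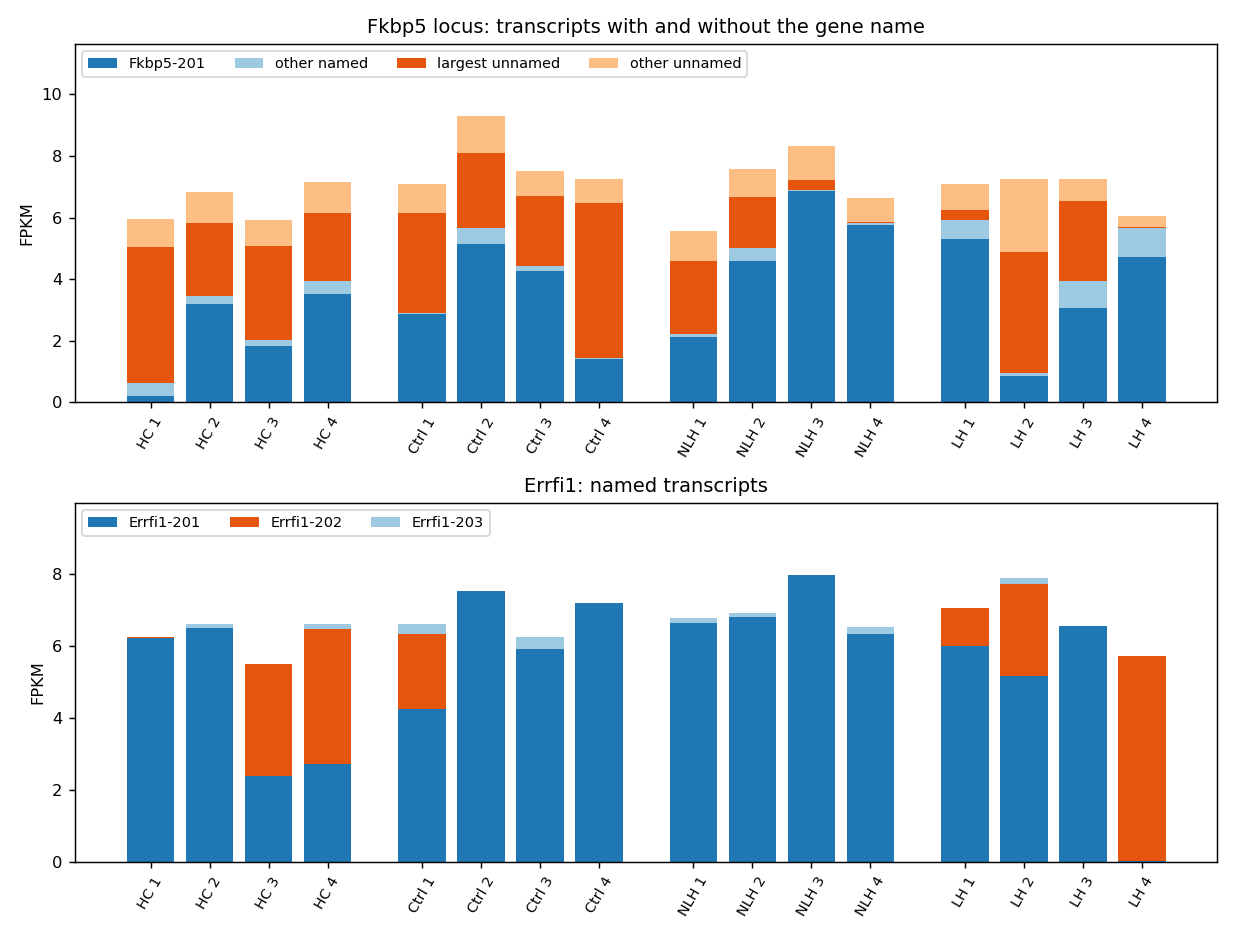
FPKM of the named and unnamed transcripts of Fkbp5 and of the 3 transcripts of Errfi1, stacked for each mouse. The named Fkbp5 part runs from 0.619 to 6.91 FPKM between mice while the stacked total varies less, and Errfi1-202 takes the place of Errfi1-201 in LH replicate 4.

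Fkbp4, the cochaperone that favors receptor activity (chromosome 6, 128429735 to 128438677, minus strand), stood at 10.5, 10.3, 10.5 and 11.7 FPKM in HC and at 12.3, 13.3, 12.5 and 13.6 in Ctrl. In NLH it stood at 13.4, 13.6, 14.8 and 13.2 FPKM, and in LH at 15.2, 19.3, 11.3 and 11.7. The HC mice were thus below all Ctrl and NLH mice, and LH split into replicates 1 and 2, which were the highest of all mice, and replicates 3 and 4, which lay near the upper end of HC. The summed choroid plexus markers split across the same mice, as did Nr3c1 above. They were at 63.1 and 94.6 FPKM in LH replicates 1 and 2 and at 25.3 and 2.57 in replicates 3 and 4. Size factors split there too, at 1.15 and 1.2 in LH replicates 1 and 2 and 0.953 and 0.817 in replicates 3 and 4. The part of these markers and of library scale in the split was not tested. The ratio of means was 1.2 in Ctrl vs. HC, 1.28 in NLH vs. HC and 1.33 in LH vs. HC. The log2 differences were 0.26 (95% confidence interval -0.03 to 0.55), 0.35 (0.06 to 0.64) and 0.38 (0.09 to 0.67), with adjusted p of 1, 0.611 and 0.232 in limma. The exact permutation test gave 0.0286 for Ctrl vs. HC and for NLH vs. HC. Among the tested groups the differences were 0.03 in LH vs. NLH, 0.09 in NLH vs. Ctrl and 0.12 in LH vs. Ctrl. Those with LH rested on the split: with single mice left out they ran from -0.13 to 0.13 in LH vs. NLH and from -0.036 to 0.22 in LH vs. Ctrl. Without LH replicates 3 and 4, LH vs. Ctrl was 0.40 at an adjusted p of 0.0385 in limma, in the fit where 5.42% of all gene names passed, and it did not pass once size factors were applied too. A single transcript, Fkbp4-201, held 97.6% of the named FPKM.

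Hsd11b1, the enzyme that regenerates corticosterone (chromosome 1, 193221634 to 193264075, minus strand), varied little, from 3.85 to 6.28 FPKM with a coefficient of variation of 12.7% over all mice. Its mean was 5.18 ± 0.904 FPKM in LH, followed by HC with 4.97 ± 0.356, NLH with 4.85 ± 0.664 and Ctrl with 4.56 ± 0.526 (SD, n = 4 each). The largest log2 difference in size was 0.17, in LH vs. Ctrl. It was carried by Hsd11b1-201 (mean 2.45 FPKM) and Hsd11b1-205 (mean 2.03 FPKM), which varied more than their sum. In LH replicate 4 they stood at 0.350 and 4.07 FPKM. H6pd, which supplies the cofactor of this enzyme, was at 1.59 to 2.22 FPKM in Ctrl and 0.425 to 1.21 in LH, without overlap. The log2 difference of H6pd was -1.13 in LH vs. Ctrl, -0.66 in NLH vs. Ctrl and -0.88 in LH vs. HC, at adjusted p of 0.139, 0.786 and 0.181 in limma. With size factors LH vs. Ctrl passed, at -1.17 and an adjusted p of 0.0458.

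H6pd was 1 of 12 listed genes of steroid metabolism and transport, 10 of them measured and 5 at a mean of 1 FPKM or more. In LH vs. HC, 1 of the 10 was higher and 1 was lower at unadjusted p below 0.05, beside 8.59% and 4.62% of all gene names. Their median log2 difference was -0.03, beside 0.00 over all gene names. Abcb1a is a transporter that pumps some glucocorticoids out of the brain at the vessel wall. It was at 0.831 to 1.09 FPKM in HC and above that range in every other mouse. It was at 1.36 to 1.90 FPKM in Ctrl, 1.33 to 2.13 in NLH and 1.33 to 2.12 in LH. Its log2 difference from HC was 0.70, 0.79 and 0.77, with adjusted p of 1, 0.296 and 0.109 in limma. The summed endothelial markers, 4 of 6 measured, were at 22.3 to 25.6 FPKM in HC, 21.3 to 23.9 in Ctrl, 23.3 to 26.2 in NLH and 18.6 to 34.8 in LH. Cyp7b1 and Srd5a1, enzymes that act on neurosteroids, had differences between -0.37 and 0.19 on the log2 scale.

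Sgk1, a kinase that is a standard readout of glucocorticoid action (chromosome 10, 21882184 to 21999903, plus strand), stood at 18.3, 23.5, 18.7 and 21.8 FPKM in HC and at 18.9, 45.5, 19.0 and 15.0 in Ctrl. In NLH it stood at 9.49, 18.7, 20.3 and 10.6 FPKM, and in LH at 18.9, 16.4, 22.9 and 15.4. Ctrl replicate 2 was far above every other mouse, the next being HC replicate 2, and NLH replicates 1 and 4 were the lowest of the 16. NLH vs. Ctrl gave a log2 difference of -0.67 (95% confidence interval -1.30 to -0.04), with an adjusted p of 0.843 in limma and an exact permutation p of 0.229. Without Ctrl replicate 2 it was -0.32. Ctrl vs. HC was 0.12 with that mouse and -0.22 without it, so the direction rested on 1 mouse. LH vs. NLH gave 0.38 (95% confidence interval -0.25 to 1.01).

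Of the Sgk1 transcripts with the starts shown above, not all were high in Ctrl replicate 2. Their values are given as a description, since transcripts of a locus share reads, and use of the starts was not measured. Sgk1-201 (ENSMUST00000020145.11), with 40% of the named FPKM, was at 20.3 FPKM there and at 3.33 to 12.4 in the other 15 mice. Sgk1-202, whose window holds the full element and whose start lies 776 bases before that of Sgk1-201, had only 2.33% of the named FPKM and was also highest in this mouse, at 0.819 FPKM, closely followed by HC replicate 3 at 0.785. Sgk1-204, whose start lies 112482 bases before that of Sgk1-201, was at 2.18 FPKM in this mouse, inside the 1.84 to 3.00 of 14 mice. LH replicates 3 and 4 lay below that, at 1.36 and 0.12. The short transcripts Sgk1-206 (mean 4.30 FPKM) and Sgk1-209 (mean 3.83 FPKM, a retained intron of 347 bases) held 22.0% and 19.6% of the named FPKM. They are annotated from 21994910 and 21994683, after the start of Sgk1-201 at 21994666. From which start their reads came was not tested. Sgk1-209 was at 13.6 FPKM in Ctrl replicate 2.

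**Figure D3:**
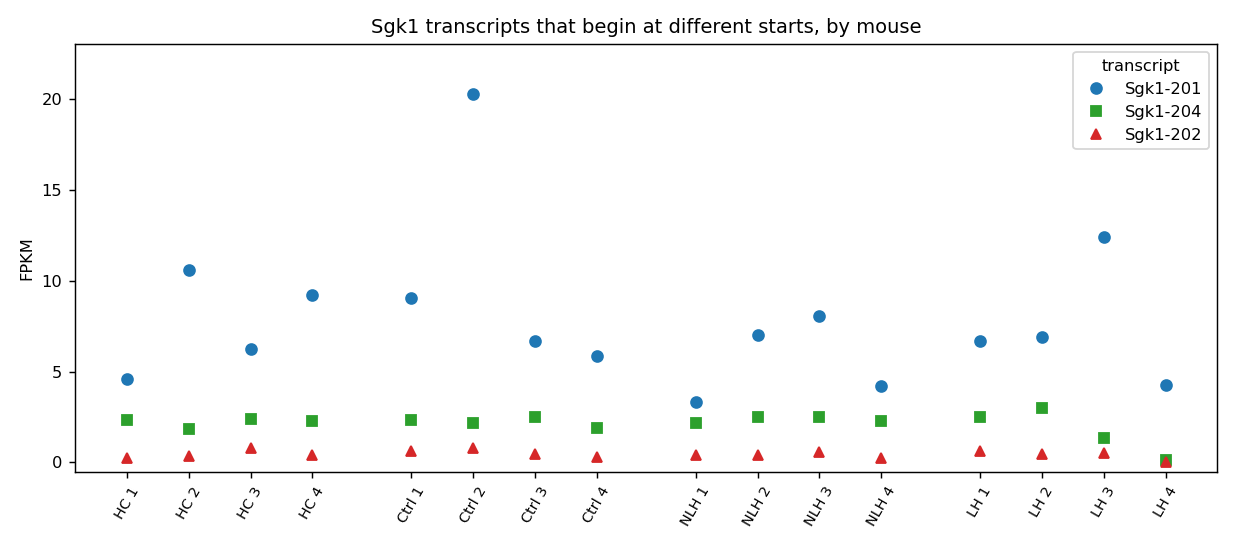
FPKM of 3 Sgk1 transcripts that begin at different starts (symbols), by mouse. The point of Sgk1-201 is highest in Ctrl replicate 2 at 20.3 FPKM, while Sgk1-204 stays between 1.84 and 3.00 FPKM in all mice but LH replicates 3 and 4.

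Ddit4, an inhibitor of mTOR signaling (chromosome 10, 59949669 to 59951834, minus strand), stood at 3.08, 3.82, 2.38 and 3.89 FPKM in HC and at 3.02, 5.81, 4.21 and 4.07 in Ctrl. NLH ran from 2.88 to 4.18 FPKM and LH from 2.30 to 4.42, so all groups overlapped, with Ctrl replicate 2 again the highest mouse. The log2 difference was 0.36 in Ctrl vs. HC, 0.11 in LH vs. NLH, -0.18 in LH vs. Ctrl and -0.29 in NLH vs. Ctrl, and the smallest adjusted p over all 6 comparisons was 0.798 in limma.

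Cdkn1a, the cell cycle inhibitor p21 (chromosome 17, 29090976 to 29100727, plus strand), had the largest log2 difference of the 9 genes at the gene level. It stood at 0.501, 0.508, 0.252 and 0.770 FPKM in HC and at 1.06, 2.00, 0.980 and 1.06 in Ctrl, so every Ctrl mouse exceeded every HC mouse. In NLH it stood at 0.558, 0.951, 0.763 and 1.33 FPKM, and in LH at 0.870, 1.48, 0.216 and 0.681, with overlap of both groups with HC and Ctrl. Ctrl vs. HC gave a ratio of means of 2.51 and a log2 difference of 1.19 (95% confidence interval 0.31 to 2.08). The unadjusted p was 0.0114 and the adjusted p 1 in limma, and the exact permutation test gave 0.0286. Without Ctrl replicate 2 the log2 difference was 0.97. LH vs. Ctrl gave -0.75 (95% confidence interval -1.64 to 0.13) and NLH vs. Ctrl -0.46, at adjusted p of 0.521 and 0.987 in limma. With single mice left out LH vs. Ctrl ran from -1.09 to -0.32. An unnamed transcript of the locus was at 1.28 FPKM in LH replicate 3. With it added, the mean was 1.13 FPKM in LH and 1.28 in Ctrl. Cdkn1a-201 carried 94.8% of the named FPKM and gave 0.97 in Ctrl vs. HC at an adjusted p of 1 in limma.

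Errfi1, a feedback inhibitor of EGF receptor signaling (chromosome 4, 150853919 to 150868892, plus strand), had the lowest coefficient of variation of the 9 genes, 10.2%, with values of 5.48 to 7.97 FPKM and a largest log2 difference of 0.17, in NLH vs. HC. Its transcripts exchanged places between mice. Errfi1-201 was at 2.37 to 7.97 FPKM in 15 mice and at 0.0269 in LH replicate 4. Errfi1-202 (ENSMUST00000073600.8) was at 5.68 FPKM in that mouse, at 1.07 and 2.55 in LH replicates 1 and 2, at 3.11 and 3.78 in HC replicates 3 and 4 and at 2.10 in Ctrl replicate 1, and at most 0.0165 in the others. Pearson's r between both was -0.953 over the 16 mice, given as a description since they share reads. Because all NLH mice were near 0, Errfi1-202 gave a log2 difference of 3.55 in LH vs. NLH, on the scale with 0.1 added, with an adjusted p of 0.514 in limma.

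Over the 45 transcripts, none passed the adjusted threshold by limma in any comparison, while 0.00374%, 0.0125%, 0.0462%, 0.0412%, 0.0237% and 0.14% of all transcripts did in Ctrl vs. HC, NLH vs. Ctrl, LH vs. Ctrl, LH vs. NLH, NLH vs. HC and LH vs. HC. Without adjustment, in the same order, 4, 4, 5, 2, 1 and 3 of the 45 had a p under 0.05, beside 3.45%, 5.12%, 10.7%, 8.72%, 5.59% and 11.9% of all transcripts. Those without overlap numbered 1, 2, 2, 3, 3 and 1, beside 4.48%, 5.02%, 5.85%, 3.18%, 5.33% and 6.17%.

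**Figure D4:**
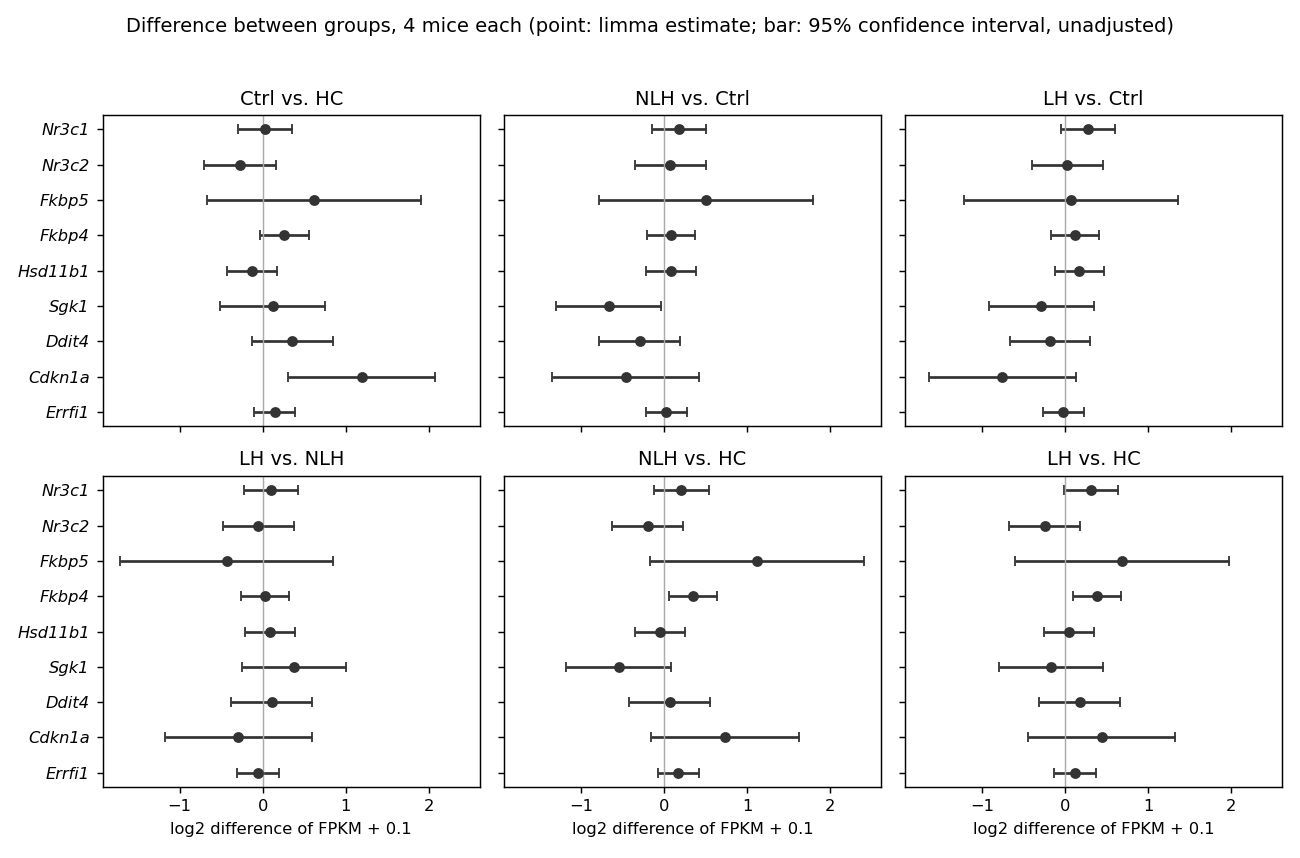
Log2 differences of the 9 genes in the 6 comparisons by limma on log2(FPKM + 0.1), with 95% confidence intervals. Intervals exclude 0 for Cdkn1a in Ctrl vs. HC, Sgk1 in NLH vs. Ctrl and Fkbp4 in NLH vs. HC and LH vs. HC, before any adjustment.

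Chaperones of the receptor complex tended to higher values in the groups that had received inescapable shock, although none passed the adjusted threshold over all gene names. Of 17 listed genes besides Fkbp4 and Fkbp5, 15 were measured. In NLH vs. Ctrl, 6 of the 15 were higher and 0 were lower at unadjusted p below 0.05, beside 4.43% and 1.16% of all gene names. In LH vs. Ctrl the counts were 7 and 0, beside 7.03% and 4.49%. The list medians were 0.24 and 0.26 on the log2 scale, beside 0.06 and 0.00 over all gene names, and with size factors they were 0.16 and 0.22, with 6 and 8 genes higher, beside 3.6% and 6.79%. With LH replicates 3 and 4 left out, 14 of the 15 were higher in LH vs. Ctrl, with a median of 0.47, but 22.4% of all gene names were then higher and their median was 0.20. With size factors in the same mice, 9 of the 15 were higher, beside 5.47%, with a median of 0.22. Summed over the list, the level was 749 to 831 FPKM in HC, 809 to 908 in Ctrl, 897 to 1053 in NLH and 820 to 1302 in LH. Against HC, 7 were higher and 0 lower in NLH, beside 5.77% and 1.13%, and 9 and 0 in LH, beside 8.59% and 4.62%, with medians of 0.25 and 0.38. With size factors 7 and 9 were higher, beside 3.75% and 6.88%, with medians of 0.14 and 0.31. In Ctrl vs. HC, 1 was higher and 1 lower, beside 1.61% and 1.08%, with a median of 0.03 that turned to -0.0053 with size factors. In LH vs. NLH, 1 was higher and 0 lower, beside 2.75% and 4.79%, but 9 were higher without LH replicates 3 and 4, beside 13.5%, and 2 with size factors as well, beside 4.33%. Markers of other cells are given beside these medians. In NLH vs. Ctrl and LH vs. Ctrl the endothelial list (4 of 6 measured) had medians of 0.24 and 0.23, with 0 and 2 genes higher. The choroid plexus list had -0.59 and -0.29, with none higher, and the striatal list (6 of 6 measured) 0.16 and -0.022, with 0 and 2 higher. The summed striatal markers were at 5.90 to 7.87 FPKM in HC, 6.04 to 6.62 in Ctrl, 6.61 to 8.74 in NLH and 5.42 to 10.2 in LH. The lists of neurons, oligodendrocytes, astrocytes, microglia and red blood cells had medians between -0.18 and 0.11 in both comparisons. Without LH replicates 3 and 4, LH vs. Ctrl gave medians of 0.53 for endothelium, 1.39 for choroid plexus, 0.55 for striatum and 0.67 for red blood cells. With size factors as well these were 0.29, 1.14, 0.31 and 0.42, and the other marker lists lay between -0.14 and 0.07. The part of these cell markers in the chaperone values was not tested. Stip1, which links Hsp70 to Hsp90, was at 7.49 to 10.3 FPKM in HC, 10.4 to 11.7 in Ctrl, 14.6 to 16.8 in NLH and 11.7 to 18.6 in LH. Its log2 difference was 0.79 in NLH vs. HC and 0.66 in LH vs. HC, at adjusted p of 0.0632 and 0.07 in limma. Both passed with size factors (0.68 and 0.58, adjusted p = 0.0065 and 0.0162 in limma) and with genes of a mean of 1 FPKM or more (adjusted p = 0.0364 and 0.0438). Ppid, a further immunophilin of the complex, gave 0.81 in LH vs. Ctrl (adjusted p = 0.12 in limma) but -0.41 in Ctrl vs. HC. Hspa4 gave 0.49 in LH vs. HC and 0.47 in LH vs. Ctrl, and Dnaja1, an Hsp40 protein, 0.66 in NLH vs. HC, at adjusted p of 0.0781, 0.131 and 0.247 in limma.

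Coregulators of the receptors were all measured, 11 of 11. In NLH vs. HC, 4 were higher and 0 were lower at unadjusted p below 0.05, beside 5.77% and 1.13% of all gene names, with a list median of 0.28 beside 0.08 over all gene names, and with size factors 3 were higher, beside 3.75%, with a median of 0.17. In LH vs. HC and NLH vs. Ctrl 2 were higher in each, beside 8.59% and 4.43%, in Ctrl vs. HC and LH vs. Ctrl 1 in each, beside 1.61% and 7.03%, and none was lower in any comparison without size factors. With them, LH vs. HC had 2 higher and 1 lower, beside 6.88% and 9.91%. Ncor1, a corepressor, ran from 37.0 to 47.4 FPKM in NLH against 25.1 to 30.1 in HC and 24.1 to 32.6 in Ctrl, with a log2 difference of 0.50 in NLH vs. Ctrl (adjusted p = 0.522 in limma). Crebbp, an acetyltransferase coactivator, gave 0.36 in NLH vs. HC, while Nrip1 gave 0.26 in LH vs. Ctrl. Their adjusted p were 0.608 and 0.362 in limma.

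Of 35 further genes known as glucocorticoid targets, 33 were measured and 26 had a mean of 1 FPKM or more. In Ctrl vs. HC, 7 were higher and 0 were lower at unadjusted p below 0.05, beside 1.61% and 1.08% of all gene names, with a list median of 0.29 beside 0.02. With array weights 15 were higher, beside 5.9%, and with size factors 9, beside 2.14%. The counts were 5 and 0 in NLH vs. HC, beside 5.77% and 1.13%, and 8 and 1 in LH vs. HC, beside 8.59% and 4.62%. Against Ctrl they were 0 and 2 for NLH, beside 4.43% and 1.16%, and 4 and 3 for LH, beside 7.03% and 4.49%. In LH vs. NLH they were 0 and 1, beside 2.75% and 4.79%. These 3 comparisons had medians of 0.00, -0.03 and -0.03. These directions depended on the processing, where array weights gave LH replicates 3 and 4 the lowest weights of all mice: LH vs. Ctrl had 1 higher and 6 lower with size factors (median -0.07, beside 6.79% and 9.1% of all gene names) but 5 and 0 with array weights (median 0.08, beside 17.6% and 2.95%), and NLH vs. Ctrl 0 and 4 with size factors, beside 3.6% and 3.46%. Against HC the medians stayed above 0 with size factors, at 0.26 in Ctrl, 0.07 in NLH and 0.09 in LH. Of the cell marker lists, choroid plexus had a median of 0.55 in Ctrl vs. HC and oligodendrocytes -0.24. The other marker lists lay between -0.08 and 0.08 there, and the part of these cells in the target values was not tested. Sult1a1, a sulfotransferase, was the only gene of these lists past the adjusted threshold in limma over all gene names and mice, without rescaling. It was at 1.30 to 1.87 FPKM in HC, 2.52 to 4.24 in Ctrl, 2.09 to 5.23 in NLH and 4.01 to 4.44 in LH. LH vs. HC gave a log2 difference of 1.36 and an adjusted p of 0.0366 in limma, Ctrl vs. HC 0.87 and NLH vs. HC 1.14. The LH vs. HC call was lost without any 1 of the HC mice or without LH replicate 1, at adjusted p of 0.0632 to 0.141, and also with only these groups in the fit (0.0608) and with mice of equal number as a block (0.0537). Fam107a, a stress-responsive actin-binding gene, and the metallothioneins Mt1 and Mt2 were also higher than HC, by 0.46, 0.46 and 0.29 in Ctrl and by 0.50, 0.59 and 0.53 in LH, with adjusted p of 0.104 or more in limma. With size factors Mt1 and Fam107a passed in LH vs. HC (0.52 and 0.42, adjusted p = 0.021 each in limma), and Fam107a in NLH vs. HC (0.44, adjusted p = 0.0395).

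Ctrl replicate 2 was the highest of the 4 Ctrl mice for 6 of the 9 genes and for 22 of the 26 further targets with a mean of 1 FPKM or more. It was the highest of all 16 mice for Sgk1, Ddit4 and Cdkn1a and for 7 of the further targets. NLH replicate 3 was highest for Fkbp5 and Errfi1 and also for 7 of the further targets. LH replicate 2 was highest for Nr3c1, Fkbp4 and Hsd11b1, and LH replicate 3 for Nr3c2. Ctrl replicate 2, NLH replicate 3 and LH replicate 2 also had the highest size factors of their groups, at 1.02, 1.13 and 1.2. Their summed choroid plexus markers were likewise the highest of their groups, at 53.3, 66.1 and 94.6 FPKM. How often each mouse was highest over all gene names was not counted, and the part of scale and tissue was not tested.

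Of 8 listed genes of the corticotropin-releasing hormone system 7 were measured, and only Crhbp and Crhr1 had a mean of 1 FPKM or more. Their log2 differences lay between -0.41 and 0.17. In LH vs. NLH, 1 of the 7 was higher and 0 were lower at unadjusted p below 0.05, beside 2.75% and 4.79% of all gene names. None of the 7 was under 0.05 in the other comparisons. Of 10 immediate early genes, 9 were measured, and 3 were higher and 0 were lower at unadjusted p below 0.05 in each comparison with HC, beside 1.61%, 5.77% and 8.59% higher over all gene names in Ctrl, NLH and LH. Arc gave 0.64, 0.44 and 0.69 against HC in Ctrl, NLH and LH, Fos 0.70, 0.86 and 0.89, Egr1 0.18, 0.26 and 0.42, and Nr4a1 0.47, 0.37 and 0.34, with no adjusted p under 0.10 in limma.

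Correlation among the 9 genes was computed on log2(FPKM + 0.1) over the 16 mice, with permutation p adjusted over the 36 pairs. Of the pairs 26 were positive and 10 negative, with a median r of 0.17, and 3 had an adjusted p under 0.05. Errfi1 and Ddit4 had r = 0.769 (permutation p = 0.00064, adjusted p = 0.0115) and rho = 0.694 (permutation p = 0.00374, adjusted p = 0.0673), and r was 0.726 without HC replicate 3 and NLH replicate 3. Fkbp4 and Errfi1 had r = 0.762 (permutation p = 0.00059, adjusted p = 0.0115) and rho = 0.776 (permutation p = 0.00066, adjusted p = 0.0238), and r was 0.788 without HC replicate 2 and LH replicate 2. Nr3c1 and Fkbp4 had r = 0.727 (permutation p = 0.00136, adjusted p = 0.0163) and rho = 0.609 (permutation p = 0.0143, adjusted p = 0.129). By rank, therefore, only Fkbp4 with Errfi1 passed among these 3 pairs. The relation of Nr3c1 with Fkbp4 rested on LH replicates 1 and 2, without which r was 0.409. After scaling by size factors, which ranged from 0.817 in LH replicate 4 to 1.2 in LH replicate 2, none of the 36 pairs passed, and the 3 coefficients were 0.47, 0.298 and 0.466. With group means removed 9 pairs passed, and with LH replicates 3 and 4 left out 1 did.

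Neither Nr3c2 nor Fkbp5 or Sgk1 was in any of these 3 pairs. Nr3c1 and Nr3c2 had r = -0.388 (permutation p = 0.144, adjusted p = 0.328). Fkbp5 had r between -0.251 and 0.233 with each of the other genes, and Sgk1 had r = -0.387 with Nr3c1. Sgk1 and Ddit4 had r = 0.58 (permutation p = 0.0195, adjusted p = 0.117), and r was 0.383 without Ctrl replicate 2 and NLH replicate 1. With group means removed that pair passed (r = 0.613, adjusted permutation p = 0.0467).

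**Figure D5:**
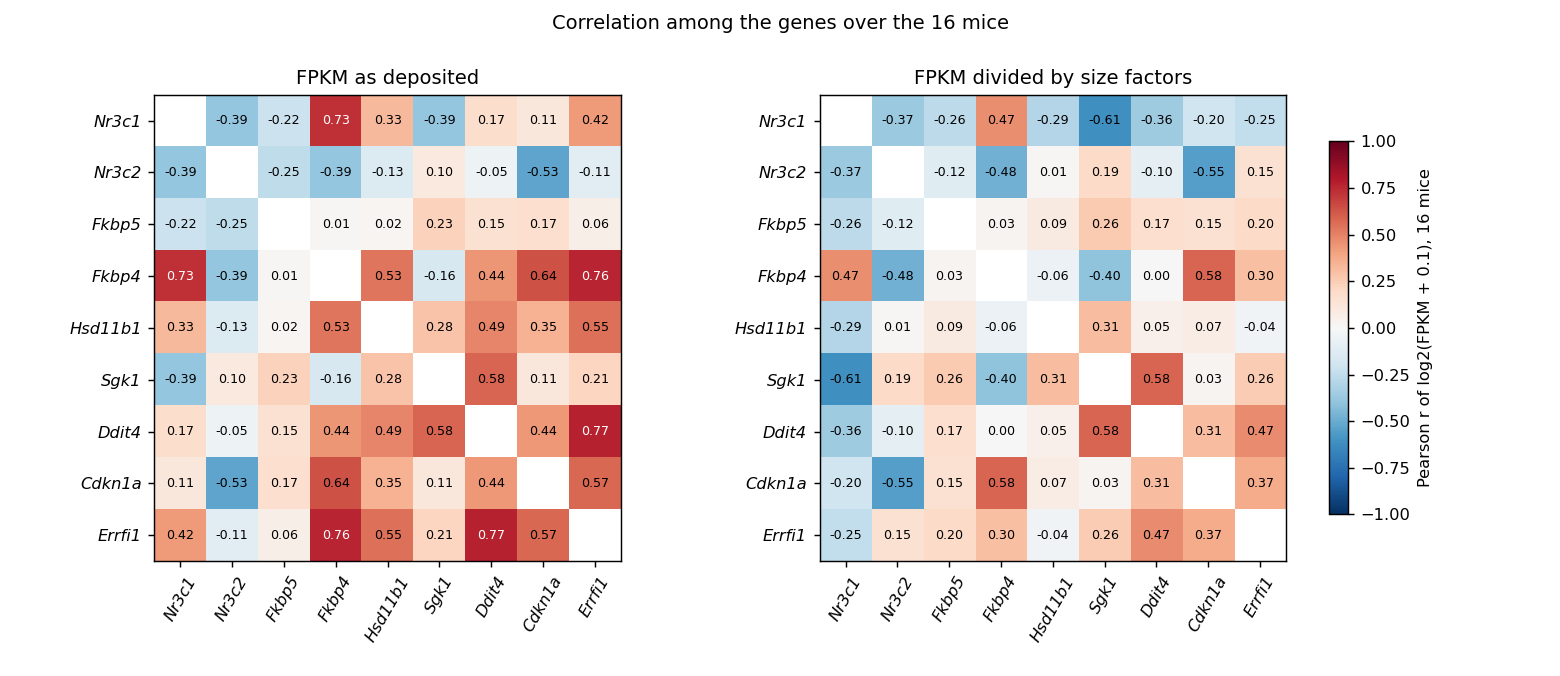
Pearson's r between the 9 genes over 16 mice, on the values as deposited (left) and after scaling by size factors (right). The highest coefficients on the left, 0.769 for Errfi1 with Ddit4 and 0.762 for Fkbp4 with Errfi1, are 0.47 and 0.298 on the right.

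Among the other 10435 genes with a mean of 1 FPKM or more, those most like a listed gene over the 16 mice were found by Pearson's r, given as a description because all share the libraries and their depth. Nr3c1 was most like Lix1 (r = 0.936), Hdac2 (0.920) and Rgs5 (0.909), and 203 genes reached an r of 0.8 with it. Hsd11b1 was most like Atp6v0a1 (0.886), Endog (0.882) and Rps7 (0.859), with 63 such genes, and Ddit4 most like Mat2a (0.851), Tet3 (0.843) and Dusp5 (0.835), with 10. Nr3c2 was most like Gm16907 (0.850), Foxred1 (0.804) and Syt2 (0.791), with 2 such genes. Fkbp5 was most like Asap1 (0.813), Brwd1 (0.778) and Ano6 (0.730), with 1, and Sgk1 most like Spsb1 (0.736), Mthfd1l (0.729) and Pigz (0.723), with none. The median r over all these genes was 0.391 for Hsd11b1, 0.356 for Ddit4 and 0.348 for Nr3c1, but -0.107 for Nr3c2, -0.0352 for Fkbp5 and 0.0546 for Sgk1.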

How the data were processed

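RNA of the mouse hippocampus was sequenced from 16 mice in 4 groups, which were taken from the sample labels. The deposited values are FPKM per transcript and mouse, not on a log scale and not scaled between mice by the authors. According to the methods, reads were aligned to mm10 with HISAT2, transcripts were assembled and merged over all samples with StringTie, and the merged transcripts were quantified with Cufflinks. The submitters' processing notes name STAR 2.42a in place of HISAT2, StringTie 1.2.3 and Cufflinks, and which aligner made the values was not tested.

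Here FPKM were summed over the transcripts of each of 18287 gene names, and limma 3.58.1 (R 4.3.3, with the data.table package at version 1.17.8) was fitted with trend and robust moderation to log2(FPKM + 0.1), with a mean for each of the 4 groups and all 16 mice in the fit, for 6 comparisons. Benjamini-Hochberg adjustment ran over all gene names, or over all 80137 transcripts, at a threshold of 0.05. A fold change on this scale understates the change of low genes. The study's own test, an equal-variance test on FPKM, was kept as an alternative because limma shares the spread over all groups. Exact two-sided permutation tests compared single genes, where 4 against 4 mice cannot give a p under 0.0286. Correlations used 100000 two-sided permutations over 36 pairs, not the 45 planned, because Tsc22d3 was not analysed. Other computations used Python 3.11.15, numpy 2.4.6, pandas 2.3.3, scipy 1.17.1 and matplotlib 3.10.9.

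The fits used FPKM and no read counts. Fragment numbers were estimated from how finely low FPKM values are stepped at loci with only 1 transcript, assuming fragments of 200 bases. Of the low values, 66.5% to 84.3% per mouse then lay within 0.1 of a whole fragment, where evenly spread values give 20%. The depth was chosen on the same values for the best fit to whole numbers, so this share does not test the estimate. No count test was run. Fragment numbers cover counting error only.

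Gene positions and transcript names came from the GENCODE annotation of GRCm38, and promoter windows from RefSeq. Alternatives were 0.01 or 1 added in place of 0.1, genes of a mean FPKM of 1 or more, size factors by median ratio, the equal-variance test, only the 2 groups compared, array weights, mice of equal number as a block, and each mouse left out. Added after the data had been seen were the unnamed transcripts of a locus, LH replicates 3 and 4 left out, with and without size factors, and the correlations without Ctrl replicate 2. Equal numbers did not pair mice: with group means removed, the median r between such mice was -0.023 (24 pairs). The steps were tested on simulated data.

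The listed genes, the further lists and the tests were chosen with earlier results of these data known. The text names all listed genes. It names their transcripts that averaged 1 FPKM or more, or 0.5 or more with a limma p under 0.05. From each further list it takes up to 4 genes with the smallest limma p among those with a mean FPKM of at least 1, and any that passed the adjusted threshold, and for 6 listed genes the 3 genes most correlated with each. A gene that this rule names among the coregulators is not reported here. Sgk1-202 and the unnamed transcripts of Fkbp5 and Nr3c2 were named after their values were seen. Markers of hippocampal neurons, oligodendrocytes, astrocytes, microglia, endothelium, choroid plexus, red blood cells and striatum were summed or compared as a check of the tissue.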

Additional observations from a re-analysis of the deposited data

Results flagged for a closer look

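In 36 groups (9 genes in 4 groups of 4 mice), 3 mice lay far from the other mice of their group, and chance alone marks about 1 in 20 groups in this way. Sgk1 was at 45.5 FPKM in Ctrl replicate 2, where the next Ctrl mouse was at 19.0 and the lowest at 15.0. Cdkn1a was at 2.00 FPKM in the same mouse, where the next was at 1.06. Ddit4 was at 2.30 FPKM in LH replicate 4, below the next LH mouse at 4.09, in the library with 15504 transcripts listed at 0.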

How the results depend on the processing

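None of the 9 genes passed the adjusted threshold in any comparison when 0.01 or 1 was added, when a mean FPKM of at least 1 was required, with size factors, with the equal-variance test, with only the groups compared, with unnamed transcripts added, or with any 1 mouse left out. With each mouse left out in turn the count ranged from 0 to 0. Mice of equal number as a block gave 0 of the 9 genes in every comparison, and the block changed no call on them. With array weights, LH vs. Ctrl had 1 such gene and LH vs. HC had 2, where 5.29% and 7.77% of all gene names passed. With LH replicates 3 and 4 left out, both LH vs. Ctrl and LH vs. HC had 2, where 5.42% and 10.7% of gene names passed, with 1 transcript in each, where 0.41% and 2.17% of all transcripts passed. These were Nr3c1 (LH vs. Ctrl 0.49 and 0.59, adjusted p 0.0322 and 0.0236; LH vs. HC 0.53 and 0.62) and Fkbp4 (LH vs. Ctrl 0.40 without those mice, LH vs. HC 0.52 and 0.67), and Nr3c1-204 (0.90, adjusted p = 0.0464 in LH vs. Ctrl). With size factors as well, 0 passed. The 3 correlated pairs became 0 with size factors, 9 with group means removed, 1 without LH replicates 3 and 4, and 4 without Ctrl replicate 2, with Fkbp4 and Cdkn1a added (r = 0.684, adjusted permutation p = 0.0444). The cause was not tested.

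Reversed differences, none past the threshold, were as follows on the log2 scale. In NLH vs. Ctrl, Nr3c2 was -0.0027 and Errfi1 -0.049 with size factors, and Nr3c2 -0.086 and Fkbp5 -0.15 with unnamed transcripts. In LH vs. Ctrl, Nr3c2 was -0.018 with size factors, -0.20 with array weights and -0.10 with unnamed transcripts, Fkbp5 was -0.16 with unnamed transcripts, and Errfi1 was 0.054 with array weights. There, without LH replicates 3 and 4, Nr3c2 was -0.20, Fkbp5 -0.40, Errfi1 0.12 and Ddit4 0.061, and with size factors as well Nr3c2 -0.44, Fkbp5 -0.63 and Nrip1 -0.013. In LH vs. NLH, Nr3c2 was 0.042 with the equal-variance test, Fkbp4 -0.0013 and Cdkn1a 0.28 with unnamed transcripts, Errfi1 0.023 with array weights, Cdkn1a 0.36 and Errfi1 0.086 without LH replicates 3 and 4, and Cdkn1a 0.21 with size factors as well. In NLH vs. HC, Ddit4 was -0.040 with size factors. In LH vs. HC, Hsd11b1 was -0.027 with size factors, and without LH replicates 3 and 4 and with size factors Fkbp5 was -0.045, Hsd11b1 -0.028 and Errfi1 -0.017.

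With single mice left out, differences that turned ran in LH vs. NLH from -0.63 to 0.14 for Cdkn1a, -0.13 to 0.025 for Errfi1, -0.13 to 0.13 for Fkbp4, -0.78 to 0.14 for Fkbp5, -0.0081 to 0.16 for Hsd11b1, -0.011 to 0.20 for Nr3c1 and -0.32 to 0.14 for Nr3c2. In LH vs. Ctrl they ran from -0.33 to 0.032 for Ddit4, -0.098 to 0.056 for Errfi1, -0.036 to 0.22 for Fkbp4, -0.30 to 0.65 for Fkbp5, -0.24 to 0.21 for Nr3c2 and -0.48 to 0.054 for Sgk1. Those in the other comparisons ran from -0.073 to 0.16 for Ddit4 and -0.10 to 0.054 for Hsd11b1 in NLH vs. HC, -0.050 to 0.12 for Hsd11b1 in LH vs. HC, -0.029 to 0.075 for Errfi1 in NLH vs. Ctrl, and -0.011 to 0.091 for Nr3c1 and -0.22 to 0.31 for Sgk1 in Ctrl vs. HC. Among the further lists, Hspa4 passed in LH vs. HC when a mean of 1 FPKM was required (adjusted p = 0.0497). Without LH replicate 4, Stip1, Hspa4, Mt1, Mt2, Fam107a, Arc and Egr1 passed in LH vs. HC and Ppid in LH vs. Ctrl (adjusted p 0.0177 to 0.0468), without LH replicate 3 Hspa4 in LH vs. HC (0.0271), and without NLH replicate 1 Sult1a1 in NLH vs. HC (0.00952). Array weights, and leaving out LH replicates 3 and 4, added Dnaja1, Abcb1a, Ncor1 and Fos in LH vs. HC and gave Stip1, Ppid, Hspa4 and Dnaja1 in LH vs. Ctrl (adjusted p 0.00822 to 0.0304). Array weights also gave Dnaja1 in NLH vs. Ctrl (0.0286) and Stip1, Dnaja1, Abcb1a, Ncor1, Sult1a1, Mt1, Mt2 and Fam107a in NLH vs. HC (0.00504 to 0.0498), and without LH replicates 3 and 4 with size factors as well Stip1 (0.034) and Mt1 (0.0445) passed in LH vs. HC. With array weights, the genes higher at unadjusted p below 0.05 in Ctrl vs. HC, NLH vs. Ctrl, LH vs. Ctrl, LH vs. NLH, NLH vs. HC and LH vs. HC were 4, 9, 13, 4, 10 and 13 chaperones, 1, 4, 4, 0, 4 and 5 coregulators, 15, 2, 5, 1, 9 and 13 further targets and 5, 0, 2, 3, 3 and 3 immediate early genes, beside 5.9%, 11.4%, 17.6%, 6.76%, 13.6% and 20.6% of all gene names. The Sult1a1 call in LH vs. HC was lost with only the groups compared (adjusted p = 0.0608) and with the replicate block (0.0537).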

Other observations

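At the level of whole loci, with unnamed assembled transcripts added to the named ones after the data had been seen, Cdkn1a had a log2 difference of 0.93 in Ctrl vs. HC and 0.76 in LH vs. HC, at adjusted p of 1 and 0.275 in limma, and the locus stood at 0.501 to 0.770 FPKM in HC, 0.980 to 2.00 in Ctrl, 0.578 to 1.33 in NLH and 0.681 to 1.5 in LH. Beside Fkbp5 and Nr3c2, the unnamed share of the locus was 10.7% for Cdkn1a, 8.90% for Ddit4, 4.97% for Fkbp4, 3.72% for Nr3c1 and 3.49% for Sgk1, and no unnamed transcript lay at Hsd11b1 or Errfi1.

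For each of the 9 genes the leading transcript varied more between mice than the whole locus did, by coefficient of variation. This was so for Fkbp5 (54.0% and 13.3%), Nr3c2 (38.4% and 7.09%), Errfi1 (38.9% and 10.2%) and Hsd11b1 (34.5% and 12.7%), and by a smaller ratio for Nr3c1 (23.5% and 17.0%), Sgk1 (52.5% and 40.0%), Cdkn1a (54.7% and 42.8%), Fkbp4 (19.3% and 16.3%) and Ddit4 (23.9% and 21.6%).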
